A study of Mus musculus with 20 samples.

Results

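Lungs of mouse dams given the high dose of carbon black were set against lungs of dams given the medium dose, to see what separates a total of 268 µg from a total of 54 µg. The members are the arrays titled High and the arrays titled Medium, 5 of each, which makes 10 of the 20 arrays in the series. The high-dose dams carry the numbers 60, 62, 63, 64 and 65, and the medium-dose dams the numbers 46, 47, 48, 49 and 50. All were young adult, time-mated females of the strain C57BL/6BomTac that had not borne young before, and they were pregnant when exposed. Particles of carbon black, an industrial form of soot, were instilled into the trachea 4 times, on gestation days 7, 10, 15 and 18. Each instillation held 67 µg for the high dose and 13.5 µg for the medium dose. A low dose (11 µg in total) and a water control, with 5 dams each, complete the series, and lungs were taken 26 to 27 days after exposure. Every lung was a separate animal with its own array, so that the spread within a group holds both differences between dams and differences between arrays.

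Carbon black is poorly soluble and is taken up mainly by alveolar macrophages, the resident phagocytes of the air spaces. Laden macrophages and the lung epithelium release chemokines, small secreted proteins that draw in leukocytes: CXC chemokines mainly act on neutrophils, and many CC chemokines act on monocytes, lymphocytes or eosinophils. Plasma cells are B cells turned into antibody secretors, and they are part of the immune tissue that can build up around airways after repeated irritation.

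RNA of each lung was labelled with Cy5 and hybridised together with a common reference RNA in Cy3 on a two-colour array of 60-base probes. Each value below is the log2 ratio of lung over reference for 1 array, as the authors deposited it. It compares dams for 1 gene, and levels of different genes cannot be ranked with it. The Cy5 signal stood well above background for 72.9% ± 3.44 of the probes on the high-dose arrays and 69.1% ± 4.76 on the medium-dose arrays (SD, n = 5 each, exact permutation p = 0.183, two-sided). The medians of the Cy5 signal, 205 ± 26.7 and 196 ± 30.1 intensity units at the high and medium dose, did not separate the groups either (exact permutation p = 0.651). Across genes, which are not independent replicates, arrays correlated at 0.964 to 0.979 within the high dose, at 0.957 to 0.988 within the medium dose and at 0.951 to 0.981 between them. Lung markers were present throughout: all 4 markers of alveolar type 2 cells, all 4 of alveolar type 1 cells, all 3 of club cells and all 4 of alveolar macrophages were well above background on all 10 arrays.

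The layout of the slides bears on every result. Slides 1, 2 and 3 each held a high-dose and a medium-dose dam, with dams 60, 62 and 63 beside dams 46, 47 and 48. High-dose dams 64 and 65 were on slides 4 and 5, which held no medium-dose array. Medium-dose dams 49 and 50 sat alone on slide 6, which was scanned on a later day with another version of the software. Each comparison was therefore repeated with the 3 medium-dose dams on the shared slides. Within slides, high-dose arrays always had position 4, and medium-dose arrays position 3 on the shared slides and positions 1 and 2 on slide 6, so array position and dose cannot be told apart.

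At the high dose 20 genes were higher and 2 were lower than at the medium dose, out of 19922 tested by limma (Benjamini-Hochberg adjusted p under 0.05). That is 0.1% of the genes for rises, 0.01% for falls and 0.11% in either direction. The rises include the chemokines Cxcl5, Cxcl3 and Ccl9 and 8 transcripts of antibodies and plasma cells. Of the 22 genes, 16 have a gene symbol and 20 differed by more than 1.5-fold. The ranges of the groups did not overlap for 18 of them. Over all genes they did not overlap for 1.31%, with all high-dose dams above in 0.582% and below in 0.723%. The median difference over all genes was -0.01 on the log2 scale. All 22 had the same sign within each of the 3 shared slides, where 12.4% of all genes were higher and 14.8% lower at the high dose on every one. These arrays are among those on which the 22 were called, so the shared sign is no separate support. For the 18 without overlap, the sign within each slide follows from the lack of overlap. The lungs were measured in bulk, so that more cells of a type and more RNA per cell cannot be told apart. At an unadjusted p under 0.05, 820 genes (4.12%) were higher and 1250 (6.27%) lower.

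With only the 3 medium-dose dams on shared slides, 0 genes passed by limma (0% of the 19922), and the lowest adjusted p was 0.0859, for Cxcl5. At an unadjusted p under 0.05 there were then 592 higher genes (2.97%) and 560 lower genes (2.81%). Each of the 22 called genes kept its sign and an unadjusted p under 0.05 by limma, but the repeat uses arrays on which they were called. The difference went from 2.99 to 3.00 for Cxcl5 and from 1.05 to 0.86 for M19902. Both falls became smaller, from -0.67 to -0.54 for Epop and from -0.68 to -0.48 for Gsg1l. The medium-dose dams of slide 6, set against the other 3 medium-dose dams, differed for 0 genes by limma (lowest adjusted p 0.561). At an unadjusted p under 0.05, 1017 genes were higher (5.1%) and 561 lower (2.82%) on slide 6. A fit on the 10 arrays alone also called 0 genes by limma (lowest adjusted p 0.178, with 652 higher and 948 lower at an unadjusted p under 0.05). It leaves out the low-dose and control arrays, so both the estimate of the spread and its precision change.

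**Figure D1:**
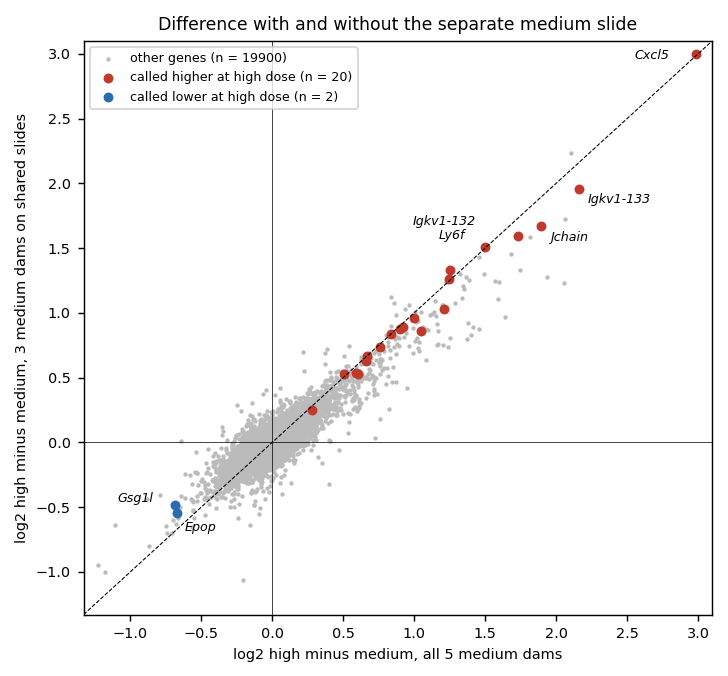
Log2 difference of high minus medium dose for every gene tested, with all 5 medium-dose dams on the horizontal axis and the 3 on shared slides on the vertical axis. The dashed line marks equal values. The 20 genes called higher and the 2 called lower lie close to the line, and Cxcl5 has 2.99 on the horizontal and 3.00 on the vertical axis.

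Among the chemokines, Cxcl5 had the largest difference of the 22 genes. Cxcl5 is a neutrophil-attracting CXC chemokine that the lung epithelium can make. Its log2 ratio was -1.75, 0.82, 0.84, -1.62 and -0.68 in high-dose dams 60, 62, 63, 64 and 65, against -3.27, -3.32, -3.85, -3.60 and -3.28 in medium-dose dams 46, 47, 48, 49 and 50. Every high-dose dam lay above every medium-dose dam, and the high-dose dams spread far wider than the medium-dose dams. The difference was 2.99 ± 0.38 (SE, n = 5 per group), or 7.92-fold, with an adjusted p of 0.00316 by limma. Here and below the SE is that of the fit, which pools the spread within all 4 groups. For Cxcl5 the SD was 1.26 at the high dose and 0.26 at the medium dose. For Ly6f, Noxo1, Lcn2 and Cxcl3 it was 0.68, 0.59, 0.65 and 0.36 at the high dose, against 0.13, 0.15, 0.23 and 0.06. For M19902, LOC628098, LOC668423, Jchain, Epop and Gsg1l the SD was larger at the medium dose. Where the high dose spreads wider than the other groups, the pooled SE and the p-value can be too small. Within slides the difference was 1.52, 4.14 and 4.69 on slides 1, 2 and 3. The Cy5 signal for Cxcl5 was well above background on all 5 high-dose arrays and on 3 of 5 medium-dose arrays.

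Cxcl3, a second CXC chemokine that attracts neutrophils, was higher by 0.66 ± 0.12 (1.58-fold, adjusted p = 0.0353 by limma). Its values were 0.15, 0.97, 0.82, 0.21 and 0.51 in the high-dose dams and -0.03, -0.16, -0.10, -0.17 and -0.18 in the medium-dose dams, in the order of dam numbers used for Cxcl5 and for every gene that follows. The groups did not overlap, although dams 60 and 64 came close to the medium dose. The signal was well above background on 5 high-dose and 2 medium-dose arrays, as on 2 low-dose and 2 control arrays, so that Cxcl3 entered the test only through the group in which it is high, and its fold is uncertain. Ccl9, a CC chemokine that attracts myeloid cells, was higher by 1.00 ± 0.18 (2.00-fold, adjusted p = 0.0316). Its values were -0.05, 0.88, 1.07, 0.60 and 1.03 at the high dose, against -0.18, 0.07, -0.64, -0.66 and -0.06 at the medium dose. Dam 60 lay among the medium-dose dams for Ccl9, and the other 4 high-dose dams lay above them all.

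The promoters of Cxcl3 and Ccl9 are shown because, of the called genes, they alone, among those with an entry, hold a match to the binding motif of NF-kappaB, a transcription factor of inflammation. Sequences come from the RefSeq table of build GRCm38.p6, which holds an entry for 11 of the 16 called genes with a symbol, and cover the 250 bases before the start site. The letters searched, on both strands, were GGG, then any 2 bases (NN), then TTTCC, and 1.4% of 27025 promoters hold a match. Capitals mark the match, which begins 73 bases before the start site in Cxcl3 (chr5:90785851-90786100, plus strand) and 35 bases before it in Ccl9 (chr11:83578637-83578886, minus strand, where the match reads as the reverse complement).
Cxcl3: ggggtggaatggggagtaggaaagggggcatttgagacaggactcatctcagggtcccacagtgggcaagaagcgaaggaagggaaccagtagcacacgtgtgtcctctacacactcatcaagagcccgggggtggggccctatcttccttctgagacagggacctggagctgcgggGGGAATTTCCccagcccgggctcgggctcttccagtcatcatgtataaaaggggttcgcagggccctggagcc
Ccl9: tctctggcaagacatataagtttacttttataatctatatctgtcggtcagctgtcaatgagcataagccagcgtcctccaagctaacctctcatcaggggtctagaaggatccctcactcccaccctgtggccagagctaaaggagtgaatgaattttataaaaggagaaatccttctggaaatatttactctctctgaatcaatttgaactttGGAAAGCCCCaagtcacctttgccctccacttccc
A match is a run of letters and no measured binding site. The motif of C/EBP factors (TTGCNNAA, in 9.55% of all promoters) occurs in 4 of the 11, namely Jchain, Lcn2, Ly6f and Slc7a11. That of AP-1 (TGANTCA, in 6.87%) occurs in 2, Ccl9 and Trem2.

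The other chemokines gave the following picture. Of 7 CXC chemokines and receptors of the neutrophil axis that could be tested, 2 passed and 3 had an unadjusted p under 0.05, all higher. Their median difference was 0.28, and 0.42 with the shared slides alone. The third was Cxcl1, with 1.22 ± 0.32 (adjusted p = 0.18 by limma). It read -3.50, -2.47, -1.84, -3.72 and -3.29 at the high dose and -4.35, -4.00, -4.25, -4.28 and -4.05 at the medium dose. These ranges did not overlap. Cxcr2, the receptor that neutrophils use for these ligands, stood at -0.01, and the lung-specific ligand Cxcl15 at -0.05.

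Of 16 CC chemokines tested, 1 passed, 10 were higher at an unadjusted p under 0.05 and 0 were lower. Their median was 0.45, and 0.41 with the shared slides alone. Ccl8, a monocyte and T cell attractant, differed by 1.60 ± 0.34 (adjusted p = 0.0885 by limma). Its values were 2.03, 2.85, 3.23, 2.22 and 3.08 at the high dose and 2.25, 1.42, 0.64, 0.66 and 0.43 at the medium dose. Medium-dose dam 46 lay among the high-dose dams, and the difference on its slide was -0.23. Ccl7, a monocyte chemokine, differed by 1.11 ± 0.24 (adjusted p = 0.0885), Ccl2 by 0.97 ± 0.29 (0.243), the eosinophil attractant Ccl11 by 0.77 ± 0.18 (0.142) and Ccl12 by 0.71 ± 0.21 (0.213). For Ccl11 the medium-dose dams stood 0.56 below the controls, while the high-dose dams stood 0.21 above them. The T cell chemokine Ccl5 was at -0.24 ± 0.15.

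Ly6f, Noxo1 and Lcn2 were also called. Ly6f, of the Ly6 family of small surface proteins, had values of 0.98, 2.48, 2.75, 1.86 and 2.01 in the high-dose dams and 0.50, 0.69, 0.32, 0.57 and 0.49 in the medium-dose dams. There was no overlap, and the medium-dose dams lay close together. The difference was 1.50 ± 0.21 (2.83-fold, adjusted p = 0.00694 by limma), and within slides 0.47, 1.80 and 2.43. Noxo1 organises the complex of NADPH oxidase 1, an enzyme of epithelia that makes superoxide. It stood at 0.74, 2.07, 2.16, 1.22 and 1.56 at the high dose, against 0.43, 0.32, 0.10, 0.46 and 0.19 at the medium dose, again without overlap. Its difference was 1.25 ± 0.19 (2.38-fold, adjusted p = 0.0113).

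Lcn2 encodes lipocalin 2, which binds bacterial iron carriers and is made by neutrophils and by inflamed epithelium. Its ratio was 1.64, 3.12, 3.30, 2.43 and 2.57 in the high-dose dams, against 1.15, 1.60, 1.11, 1.57 and 1.39 in the medium-dose dams. Dam 60 was just above the highest medium-dose dam, and the others were well above. Lcn2 was higher by 1.25 ± 0.23 (2.38-fold, adjusted p = 0.0316 by limma). Of 21 neutrophil granule genes tested, 1 passed, which was Lcn2 itself, and the median was -0.01. The neutrophil markers S100a8, S100a9, Ngp and Camp stood at 0.29, -0.19, -0.07 and -0.39, and their mean level ranged from 1.92 to 2.63 at the high dose and from 2.14 to 3.06 at the medium dose.

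Lcn2 also belongs to the acute phase proteins, of which 25 were tested, 1 passed, 9 were higher at an unadjusted p under 0.05 and 0 lower. The median was 0.14 for all 5 and for the 3 medium-dose dams alike. Saa3, a serum amyloid A protein made locally in inflamed tissue, differed by 2.10 ± 0.44 and was not called (adjusted p = 0.0769 by limma). Its values were -2.18, -0.37, 1.42, -0.61 and 0.23 at the high dose and -2.61, -2.19, -2.81, -2.93 and -1.48 at the medium dose. Dam 60 lay within the range of the medium dose and dam 63 far above it. Saa1, another serum amyloid A, was at 0.97 ± 0.24 (adjusted p = 0.151), with 0.28 by a second probe, and C3, the central complement protein, at 0.40 ± 0.15 (0.355). Metallothioneins Mt1 and Mt2, which bind zinc, were at -0.06 ± 0.11 and 0.08 ± 0.13.

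Genes of macrophages that handle lipid or particles included 2 of the calls. Trem2, a lipid-sensing receptor of macrophages, had values of -1.10, -0.18, -0.61, -0.80 and -0.32 at the high dose, against -1.51, -1.26, -1.54, -1.50 and -1.38 at the medium dose. The groups did not overlap, and the difference was 0.84 ± 0.13 (1.79-fold, adjusted p = 0.0115 by limma). A second probe for Trem2 gave 0.60. Clec5a, a lectin-like receptor on monocytes and macrophages, was higher by 0.76 ± 0.14 (adjusted p = 0.0316). It read -0.15, 0.67, 0.48, 0.06 and 0.28 at the high dose and -0.63, -0.07, -0.69, -0.63 and -0.43 at the medium dose. Medium-dose dam 47 reached into the range of the high dose. The probes of Clec5a disagreed, since a second one gave only 0.14.

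Of the 47 genes in that macrophage list 2 passed, 14 were higher and 1 lower at an unadjusted p under 0.05, and the median was 0.09, or 0.11 with the shared slides alone. Spp1, the secreted glycoprotein osteopontin, differed by 1.06 ± 0.30 (adjusted p = 0.209 by limma). The macrophage elastase Mmp12 was at 0.82 ± 0.20 and the scavenger receptor Msr1 at 0.81 ± 0.20 (both adjusted p = 0.151). The lysosomal proteases Ctsk and Ctsb were at 0.60 ± 0.15 and 0.33 ± 0.08. Ms4a7, a membrane protein of macrophages, did not pass (0.80 ± 0.17, adjusted p = 0.0885), although its lowest high-dose value of 0.40 lay above its highest medium-dose value of 0.34. Of the 4 alveolar macrophage markers, Marco, Itgax, Siglecf and Ear1, 0 passed, with differences of -0.06, -0.04, -0.42 and -0.47, and Siglecf and Ear1 were lower at an unadjusted p under 0.05 (adjusted p = 0.342 and 0.435 by limma).

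Slc7a11, the cystine transporter that feeds glutathione synthesis, and Lemd1, a LEM domain protein, were called from dim probes. Their Cy5 signal was well above background on 4 of 5 high-dose arrays and on 0 of 5 medium-dose arrays. The ratio of Slc7a11 was -0.75, -0.26, -0.54, -0.75 and -0.79 at the high dose and -1.04, -1.25, -1.17, -1.11 and -1.05 at the medium dose, without overlap. It was higher by 0.50 ± 0.09 (adjusted p = 0.0316 by limma), but 2 further probes of Slc7a11 gave -0.03 and 0.05. Lemd1 read 0.30, 1.11, 1.16, 0.75 and 0.86 at the high dose and 0.04, 0.40, 0.08, 0.27 and 0.06 at the medium dose, where dam 60 fell below dam 47. Its difference was 0.67 ± 0.12 (adjusted p = 0.0247). Lemd1 was not well above background on any low-dose or control array either, and so entered the test only through the high dose, where it is high. Without any filter on dim probes limma still called Lemd1 (adjusted p = 0.0321) and Cxcl3 (0.0461). Because the medium-dose signals were not well above background, the folds of both genes are uncertain. In the normalised Cy5 signal the group means differed 1.28-fold for Slc7a11 and 1.61-fold for Lemd1, and these values are no lower bounds. Of 37 genes in a list of NRF2 antioxidant genes and metallothionein genes, Slc7a11 was the 1 that passed, and the median was 0.01. Gclc, the rate-limiting enzyme of glutathione synthesis, was at 0.44 ± 0.16 (adjusted p = 0.342).

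**Figure D2:**
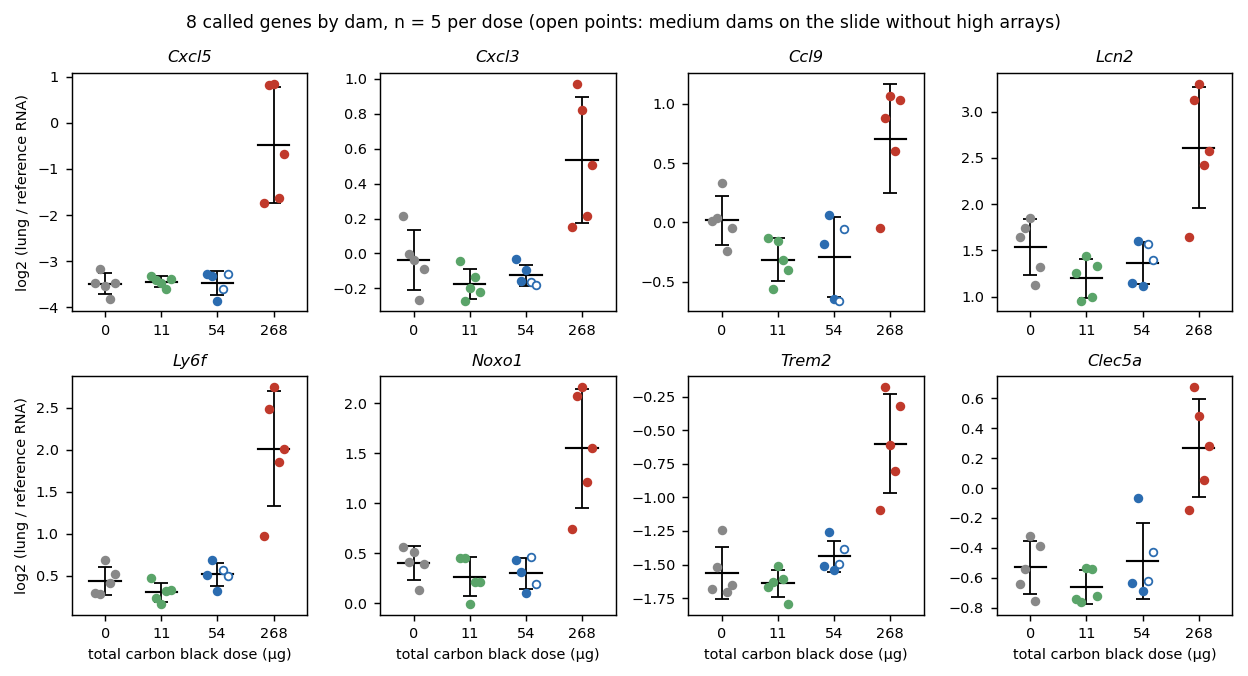
Log2 ratio of lung over reference RNA for 8 called genes, by total dose in µg from the water control (0) to the high dose (268). Points are dams, open points are the medium-dose dams of slide 6, and the horizontal line with its bar is the mean ± SD of 5 dams. For Cxcl5, Ly6f, Noxo1 and Trem2 every dam at 268 µg lies above every dam at 54 µg.

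The group means of Cxcl5 across the 4 doses were -3.49, -3.44, -3.46 and -0.48 at 0, 11, 54 and 268 µg. For Ly6f they were 0.44, 0.30, 0.51 and 2.01. High dose minus control was 3.01 for Cxcl5, 1.58 for Ly6f, 1.15 for Noxo1, 0.96 for Trem2, 1.08 for Lcn2 and 0.80 for Clec5a. Medium dose minus control was 0.02, 0.08, -0.10, 0.12, -0.17 and 0.04 for the same genes. These comparisons share arrays with the one between high and medium dose. Of the 22 genes, 17 were also called for the high dose against the control (1.04% of all genes were) and 0 for the medium dose against the control (0.00502% were). Not called for the high dose against the control were Igkv1-133, Igkv1-132, Ccl9, Epop and AK038533. For these, high dose minus control was 1.49, 1.27, 0.69, -0.28 and 0.35. Medium dose minus control was -0.67, -0.46, -0.31, 0.38 and -0.24, so the medium dose lay away from the control on the other side.

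Antibody transcripts form the largest group of calls. An antibody is built from heavy and light chains, whose variable ends are encoded by many similar V segments that B cells choose and join. Igkv1-133 and Igkv1-132 are V segments near each other in the locus of the kappa light chain, and LOC628098 resembles a heavy chain V segment. LOC668423 is described in the files as a fusion with an Fc gamma part. Their probes are shown because antibody transcripts share stretches of sequence. Coordinates are those of the files' build mm7, and capitals mark the longest run of bases that the members of each pair share, 21 bases for the kappa pair and 11 for the other pair. Igkv1-133 lies at chr6:67701639-67701698 and Igkv1-132 at chr6:67736405-67736464, both on the plus strand. LOC628098 lies at chr12:111283794-111283853 on the minus strand, and the files place LOC668423 at chr6:70536188-70536247 on the plus strand.
Igkv1-133: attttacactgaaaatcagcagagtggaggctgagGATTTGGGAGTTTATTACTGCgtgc
Igkv1-132: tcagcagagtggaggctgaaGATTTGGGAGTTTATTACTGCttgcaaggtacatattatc
LOC628098: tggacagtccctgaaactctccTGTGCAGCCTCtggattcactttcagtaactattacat
LOC668423: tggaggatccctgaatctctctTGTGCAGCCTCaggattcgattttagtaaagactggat
A probe may therefore take up transcripts of related segments, and which V segment gave a signal is uncertain. The kappa probes also share most of the bases directly before their capitals, so the calls of Igkv1-133 and Igkv1-132 may not be separate.

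Igkv1-133 read 3.63, 2.57, 4.30, 2.85 and 2.28 in the high-dose dams and 1.60, 0.93, 0.97, 0.52 and 0.82 in the medium-dose dams. All high-dose dams were above all medium-dose dams, and slide 6 held the lowest and the second lowest value. The difference was 2.16 ± 0.36 (4.47-fold, adjusted p = 0.0187 by limma), with 2.03, 1.64 and 3.33 within the shared slides. Igkv1-132 read 2.64, 1.73, 2.62, 2.73 and 1.47 at the high dose and 0.77, 0.68, 0.47, 0.24 and 0.39 at the medium dose. It did not overlap either and was higher by 1.73 ± 0.31 (3.31-fold, adjusted p = 0.0316).

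LOC628098 stood at 2.40, 1.78, 1.90, 1.71 and 1.82 in the high-dose dams and at 1.19, 1.13, 0.35, 0.40 and 0.48 in the medium-dose dams. Medium-dose dams 46 and 47 were nearer to the high dose than the other 3 were. The difference was 1.21 ± 0.18 (2.31-fold, adjusted p = 0.0113 by limma) and 1.03 with the shared slides alone. M19902, a gamma heavy chain transcript, differed by 1.05 ± 0.15 (2.07-fold, adjusted p = 0.00949). Its values were 1.65, 2.05, 1.54, 1.44 and 1.50 at the high dose and 0.84, 1.12, 0.36, 0.19 and 0.41 at the medium dose, which do not overlap. U10410, joined heavy and light V domains, was higher by 0.92 ± 0.17 (adjusted p = 0.0316) and LOC668423 by 0.61 ± 0.10 (adjusted p = 0.0187). The signal of LOC668423 was well above background on 5 high-dose and 2 medium-dose arrays, and on 3 low-dose and 4 control arrays, so its fold is uncertain.

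Jchain joins the units of secreted IgM and IgA. It was higher by 1.90 ± 0.36 (3.72-fold, adjusted p = 0.0429 by limma), and a second probe gave 1.96. The ratio was -0.25, 0.38, 0.05, -1.12 and -0.15 at the high dose and -0.97, -1.97, -2.72, -2.86 and -2.06 at the medium dose. High-dose dam 64 was the lowest of its group and fell below medium-dose dam 46, which was the highest of its group. Tnfrsf17, a survival receptor of plasma cells, was higher by 0.90 ± 0.17 (1.87-fold, adjusted p = 0.0373). Its values of 0.20, 0.59, 0.32, -0.28 and 0.36 at the high dose lay above those of -0.35, -0.67, -0.90, -0.84 and -0.56 at the medium dose. The B cell markers Cd79a and Ms4a1 stood at 0.13 and 0.27, and Sdc1, which marks plasma cells and also epithelium, at -0.12. Values of Sdc1 ran from 0.4591 to 0.6125 at the high dose and from 0.6268 to 0.7435 at the medium dose. The mean of the 3 plasma cell markers ranged from -0.268 to 0.499 at the high dose and from -1.02 to -0.218 at the medium dose. That mean includes the called genes Jchain and Tnfrsf17, so it is no separate support, and Sdc1 went the other way.

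In all, 19 immunoglobulin segment genes could be tested, a list drawn up after their values had been seen. Of these 2 passed, 11 were higher and 0 lower at an unadjusted p under 0.05, and 17 of the differences were positive. The median was 0.82, and 0.75 with the shared slides alone. The shared slides did not run alike: 12 of the 19 were lower at the high dose on slide 1, 0 on slide 2 and 1 on slide 3. The medians within slides 1, 2 and 3 were -0.16, 1.65 and 0.68, and on slide 1 Igkv8-16 stood at -2.58 and Iglv1 at -2.24. The medium-dose dams of slide 6 were 0.27 below the other medium-dose dams at the median. Ighg1, the constant part of IgG1, was at 0.82 ± 0.23 (adjusted p = 0.209 by limma), and Ighm, that of IgM, at -0.14 ± 0.23. The wider list of B and plasma cell genes had 2 of 26 called, which were Jchain and Tnfrsf17, and a median of 0.11.

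**Figure D3:**
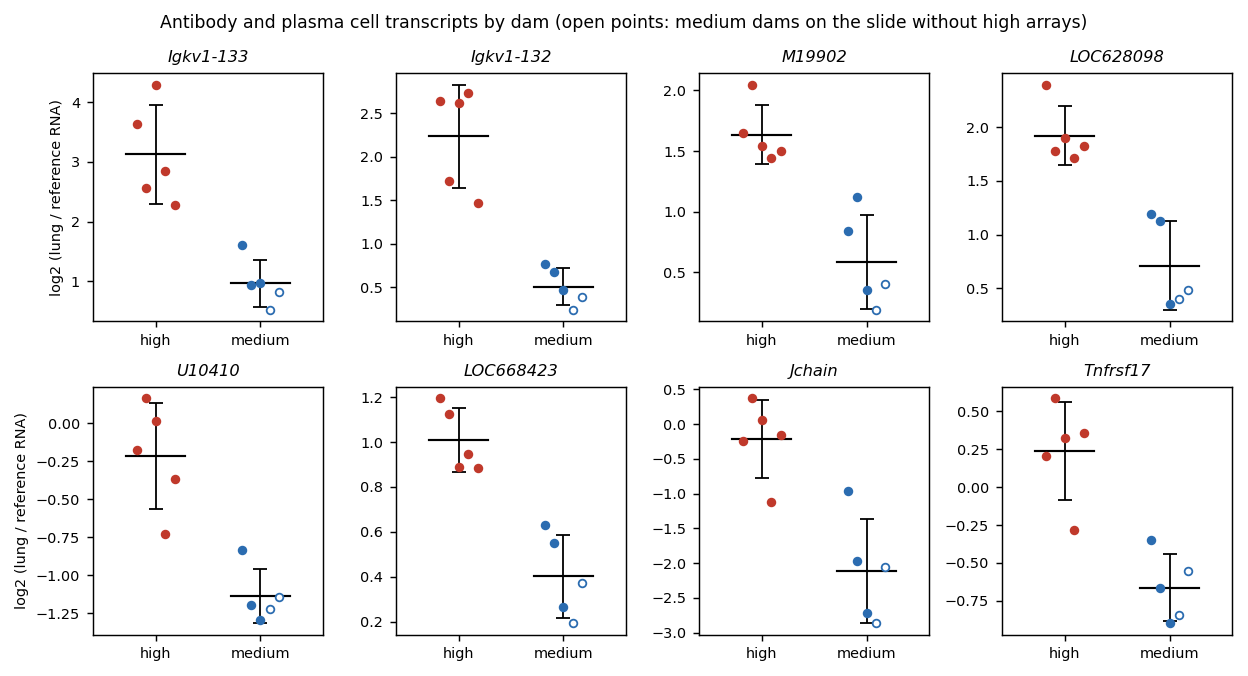
Log2 ratio of lung over reference RNA for the 8 called antibody and plasma cell transcripts, high dose on the left and medium dose on the right of each panel. Points are dams, open points are the medium-dose dams of slide 6, and the line with its bar is the mean ± SD of 5 dams. The groups overlap for Jchain and do not for the other 7.

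The 2 falls were Epop and Gsg1l. Epop, a partner of the Elongin and Polycomb complexes in chromatin, read -0.39, -0.53, -0.48, -0.13 and -0.54 at the high dose, against 0.00, 0.04, 0.35, 0.34 and 0.55 at the medium dose. It was lower by 0.67 on the log2 scale (-0.67 ± 0.12, adjusted p = 0.0353 by limma) with no overlap, and -0.54 with the shared slides alone. Gsg1l, a subunit of glutamate receptors in the brain, read 1.04, 0.80, 0.94, 1.22 and 1.20 at the high dose and 1.41, 1.54, 1.63, 2.10 and 1.95 at the medium dose. Its difference was -0.68 ± 0.13 (adjusted p = 0.0429), and -0.48 with the shared slides alone. For Gsg1l the medium-dose dams of slide 6 were 0.50 above the other 3, and for Epop 0.31 above them, and the part of the slide in these falls was not tested.

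Among the genes that separated the groups without passing, Clmp, an adhesion protein, was at 0.89 ± 0.19 (adjusted p = 0.0889 by limma), the survival factor Birc3 at 0.43 ± 0.10 (0.119), 1500009L16Rik at 0.37 ± 0.08 (0.0885) and the membrane-bound collagenase Mmp14 at 0.45 ± 0.10 (0.121). On the low side stood Gid4, a substrate receptor of a ubiquitin ligase, at -0.29 ± 0.06 (adjusted p = 0.0631), the hydrolase Abhd2 at -0.30 ± 0.06 (0.0686) and Ubald1 at -0.25 ± 0.05 (0.0885). The deubiquitinase Otud1 (-0.38), the autophagy protein Gabarapl1 (-0.35) and the cytochrome Cyp3a13 (-0.48) had adjusted p-values of 0.0889 to 0.116. For each of these 10 genes no high-dose dam crossed into the medium-dose range, because the naming rule required it. The 2 calls not yet named, AK038533 (0.59 ± 0.11) and the probe A_52_P525705 (0.28 ± 0.05), have no gene name in the files or the gene table.

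**Figure D4:**
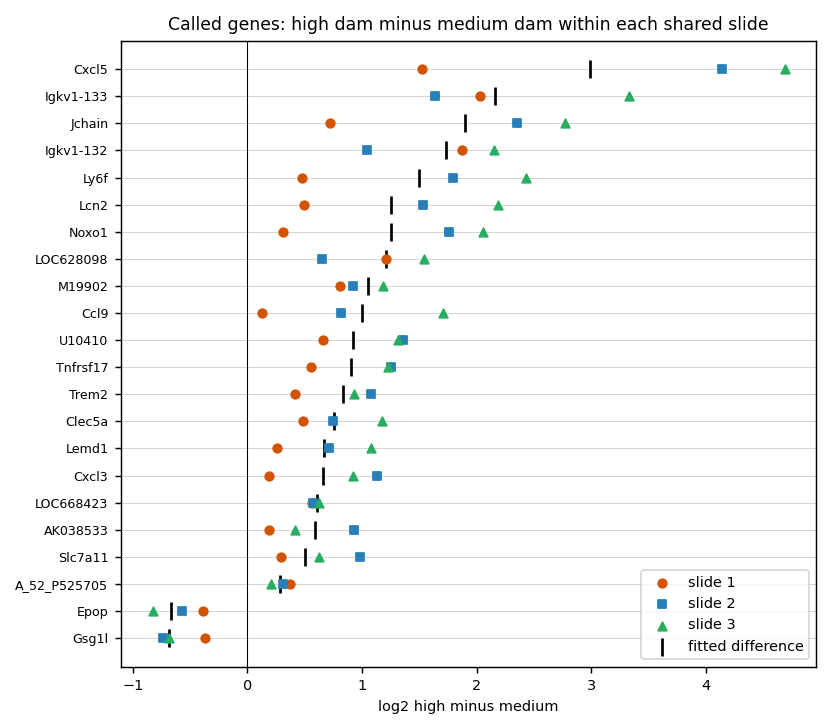
Difference between the high-dose and the medium-dose dam on the same slide, on the log2 scale, for the 22 called genes. Symbols are slides 1, 2 and 3, and the black tick is the fitted difference over all dams. All 3 symbols lie on 1 side of 0 for each gene, and slide 1, with dam 60, is the smallest for Cxcl5, Jchain, Ly6f, Lcn2, Noxo1 and Ccl9. For the 18 genes whose groups do not overlap, the side is fixed by that lack of overlap.

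High-dose dam 60 had the lowest value of its group for Cxcl5, Ly6f, Noxo1, Trem2, Lcn2, Cxcl3, Ccl9, Clec5a and Lemd1, whereas for Igkv1-133, Igkv1-132 and LOC628098 it was the highest or second highest dam. Without dam 60, 107 genes passed, 70 higher and 37 lower, and all 22 were among them. Without medium-dose dam 48, or without dam 49, 4 genes passed, and without dam 50 it was 6. Only Cxcl5, Ly6f and M19902 remained called after the omission of any single medium-dose or high-dose dam. Noxo1 lost its call only without dam 48, Trem2 and LOC628098 without dam 48 or 49, and Jchain, Tnfrsf17 and Cxcl3 on leaving out any 1 of dams 47, 48, 49, 50, 62, 63 and 65, or low-dose dam 27. With the slide as a random block in the model 26 genes passed, among them all 22. With the slide as a fixed block 5 genes passed by limma, which were Cxcl5 and LOC628098 (adjusted p = 0.0294 each) and M19902, LOC668423 and U10410 (0.0457 each). Without both dam 60 and the slide 6 dams, a setting chosen after the data had been seen, 12 genes passed, among them Cxcl5, Ly6f, Noxo1, Trem2, Lcn2, Lemd1 and Ccl9 of the 22.

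Of 31 genes of natural killer and cytotoxic T cells 0 passed, 2 were higher and 5 lower at an unadjusted p under 0.05, and only 6 differences were positive. Their median was -0.09, and -0.11 with the shared slides alone. Prf1, the pore-forming protein perforin, was at -0.45 ± 0.14 (adjusted p = 0.253 by limma). It read 1.66, 1.42, 1.15, 1.12 and 1.41 at the high dose and 1.68, 2.24, 1.56, 1.94 and 1.57 at the medium dose, with overlap through dam 60. Against the control, Prf1 stood at -0.69 for the high dose and -0.25 for the medium dose.

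Genes of eosinophils and of the Siglecf-bearing cells, which include alveolar macrophages, numbered 8. Of these 0 passed, 1 was higher and 4 were lower at an unadjusted p under 0.05, and the median was -0.20, or -0.09 with the shared slides alone. That median turned to 0.13 in the software's dye ratio and was -0.42 with probes well above background on all 10 arrays. Siglecf was at -0.42 ± 0.15 (adjusted p = 0.342 by limma), with values of 2.22, 1.73, 1.52, 1.76 and 1.58 at the high dose and 1.78, 2.11, 2.54, 2.09 and 2.39 at the medium dose. Dam 60 lay inside the medium-dose range and the other high-dose dams lay below it. The sign of Siglecf turned in the software's own dye ratio, to 0.42. Ear6, an eosinophil-associated ribonuclease, was at -0.47 ± 0.10 (adjusted p = 0.0889) by its brighter probe and at 0.08 by a second probe.

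Complement, interferon and cytokine genes held no call. The medians were 0.14 over 23 complement genes (5 higher and 0 lower at an unadjusted p under 0.05), 0.08 over 37 interferon-stimulated genes (8 higher, 1 lower) and 0.08 over 28 cytokine genes (8 higher, 2 lower). Csf2, the growth factor of alveolar macrophages and granulocytes, was at 0.56 ± 0.12 (adjusted p = 0.0792 by limma) and its values ran from 1.38 to 2.29 at the high dose and from 1.23 to 1.47 at the medium dose. C1ra, a complement protease, was at 0.34 ± 0.08 (adjusted p = 0.151), and Il1rn, the antagonist of interleukin 1, at 0.45 ± 0.12 (0.195). Sterol synthesis genes had 22 of 26 positive differences and a median of 0.13, with 2 higher at an unadjusted p under 0.05 and 0 called. Targets of the aryl hydrocarbon receptor (12 genes, median 0.11) and p53 and DNA damage genes (28 genes, median -0.03) held 0 calls by limma, and 1 gene in each list was higher at an unadjusted p under 0.05.

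Collagen and matrix genes leaned upwards, with 10 of 35 higher and 0 lower at an unadjusted p under 0.05, 0 called and a median of 0.18. With the shared slides alone the median was 0.12. Timp1, an inhibitor of matrix proteases, was at 0.79 ± 0.20 (adjusted p = 0.18 by limma) and did not overlap, with a lowest high-dose value of -2.43 and a highest medium-dose value of -2.51. The fibrillar collagens Col1a1 and Col3a1 were at 0.41 ± 0.18 and 0.66 ± 0.29. Against the control Col1a1 stood at -0.01 for the high dose and -0.43 for the medium dose. The list as a whole had a median of -0.05 for the high dose and -0.17 for the medium dose against the control.

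Cardiac muscle genes, which mouse lungs carry in the sleeves of the pulmonary veins, had a median of 0.71 over 28 genes, with 0 called, 7 higher and 1 lower at an unadjusted p under 0.05. The median was 0.51 with the shared slides alone, and the slide 6 dams stood 0.72 below the other medium-dose dams. Against the control the list stood at -0.04 for the high dose and -0.80 for the medium dose. Sln, the calcium pump inhibitor sarcolipin, read 4.27, 3.50, 2.47, 4.67 and 4.40 at the high dose and 4.87, 1.91, 1.12, 0.67 and 0.46 at the medium dose. Medium-dose dam 46 had the highest value of all 10 and the slide 6 dams the lowest.

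Fat genes had a median of 0.46 over 18 genes (0 called), and the slide 6 dams stood 0.39 below the other medium-dose dams. Circadian clock genes, whose levels follow the hour of dissection, had a median of -0.35 over 19 genes (0 called, 1 higher and 4 lower at an unadjusted p under 0.05). With the shared slides alone that median was -0.08, and the slide 6 dams stood 0.30 above the other medium-dose dams. Nr1d1, a repressor in the clock, was at -0.56 ± 0.21 (adjusted p = 0.356 by limma). For surfactant and other alveolar type 2 genes the list median was -0.07, and 0.07 with the shared slides alone. The part of dissection, time of day or slide in these lists was not tested.

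**Figure D5:**
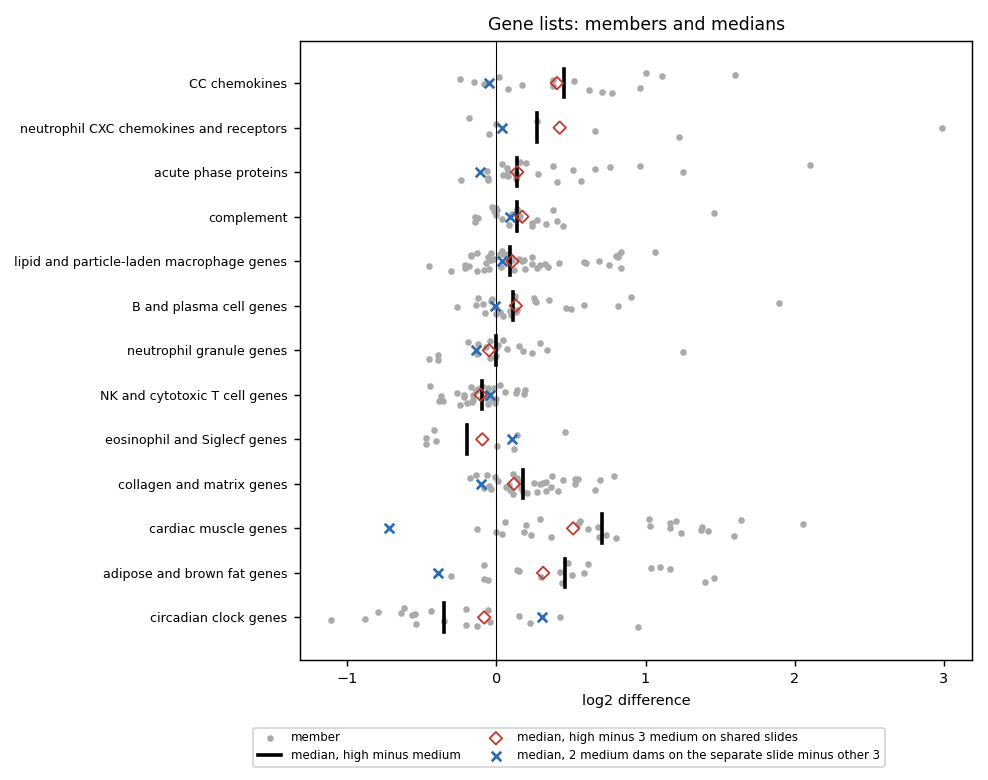
Log2 difference of high minus medium dose for the members of 13 gene lists (grey points) with the median of each list (black bar). Diamonds are medians with the 3 medium-dose dams on shared slides, and crosses are medians of the 2 medium-dose dams of slide 6 minus the other 3. The crosses lie near 0 for the chemokine and macrophage lists and at -0.72 for cardiac muscle, -0.39 for fat and 0.30 for clock genes.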

How the data were processed

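Lung RNA of 20 dams was measured on two-colour Agilent arrays, Cy5 for the lung and Cy3 for a reference RNA, with no dye swaps. Per the labels, 250 ng of RNA with integrity numbers of 7.0 to 9 was labelled for each dam. The authors deposited spot tables, which hold signals as scanner intensity and a dye ratio of the software on the log10 scale, per the file headers. They also deposited a table of log2 ratios, used here for all main values. Its 43379 rows with values had column medians of -0.05 to -0.0315 and correlated at 0.962 to 0.993 with the log2 ratio of unsubtracted Cy5 over Cy3 median signals. Lung over reference is thus the direction, and for its normalisation and any centring, the method is not given in the sources used. Spots were read with Feature Extraction, version 9.5.1.1 on 18 arrays (build mm7) and 10.1.1.1 on 2 (build mm8) per the file headers, while the labels name 9.5.3.1.

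Of 41174 probes, 23082 were named through accessions, 6582 through symbols and 3073 through synonyms of the mouse gene table of GRCm38.p6, and 8437 kept the files' name. Spots marked as outliers were left out, spots of a probe were averaged, and a probe was kept when Cy5 was well above background on at least 3 of 5 arrays of at least 1 group and a value existed on at least 16 arrays. The brightest probe stood for a gene, which left 19922 genes, 15634 with a symbol. A model with 4 group means was fitted over all 20 arrays with limma 3.58.1 (lmFit, eBayes, R 4.3.3), two-sided, with Benjamini-Hochberg adjustment over all genes and a threshold of 0.05. The repeat left out the slide 6 dams (18 arrays). The number of arrays limits the precision. For array measures, exact permutation used all 252 groupings of 5 against 5, and the smallest two-sided p it allows is 0.00794. The steps were tested on simulated data.

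Named are the 15 genes with the smallest p on the high side and the 10 on the low side among genes with a symbol whose dams do not overlap, all called genes, and the 3 members of each of 28 lists with the smallest p, not all printed; some items are not reported here. Other genes were chosen after their values were seen. The members, the lists and the rule were chosen with earlier results of these data known. Alternatives were the scanner signals with normexp (offset 50 intensity units) and loess or with no background correction, the software's ratio, Cy5 alone, centring, scaling, quantile normalisation, other filters, the mean of a gene's probes, slide or scan date as a block, other sets of arrays, and omission of each high-dose and medium-dose dam and of low-dose dam 27.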

Additional observations from a re-analysis of the deposited data

Results flagged for a closer look

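In 2 of 52 groups of 5 dams checked, 1 dam stood apart from the others by Dixon's criterion (a gap to the nearest dam of over 0.71 of the whole range), where chance gives about 5%. For LOC628098, high-dose dam 60 had the highest log2 ratio of its group, 2.40, against 1.90 for the next dam and 1.71 at the other end. For the median Cy3 signal, medium-dose dam 47 had 107 intensity units, against 86 for the next dam and 79 at the other end. No difference between groups under a shared contrast was examined.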

How the results depend on the processing

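The high-dose and medium-dose dams share no numbers, so only the slide could pair them. Those on slides 1 to 3 were compared with slide as a block, in a fit that also held the low-dose and control dams of these slides. The 22 calls between high and medium dose became 6 with normexp and loess, 8 with the software's dye ratio, 9 with probes well above background on all 10 arrays (17069 genes tested, where 13 of the 22 have a value and 9 of these stay called), 5 with slide and 1 with scan date as a fixed block. They became 0 by limma on the 10 arrays alone, on shared slides with slide as a block (lowest adjusted p 0.107, with 756 higher and 638 lower at an unadjusted p under 0.05) and without the slide 6 dams, and 12 without dam 60 and the slide 6 dams. The cause was not tested. The remaining settings gave 17 to 26, and slide as a random block 26, with all 22 among them. With 1 dam left out the count ran from 4 to 107, being 42 without high-dose dam 64, 10 to 12 without dam 62, 63 or 65 and 4 to 6 without medium-dose dam 48, 49 or 50. The repeat on shared slides gave 1 call with Cy5 alone and 0 to 12 with 1 dam left out, 12 without dam 60 and 1 without dam 64. The medium-dose dams of slide 6 against the others gave 1 call with Cy5 alone.

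Every called gene kept its sign in all settings that gave it a value, except A_52_P525705, which was -0.0765 in Cy5 alone. Other signs that turned were Siglecf (0.419), Cd83 (-0.0458) and Pigr (-0.295) in the software's dye ratio, and Cd3e (0.228) and Uqcrfs1 (-0.0238) in Cy5 alone; the cause was not tested. With 1 dam left out, the difference of the median Cy5 signal ran from -2.15 to 19.95 and that of Cy3 from -1.875 to 6.1 intensity units. The median of the eosinophil list was 0.13 in the software's ratio and -0.42 with probes well above background on all 10 arrays, against -0.20. Slc7a11, Lemd1, Cxcl3 and LOC668423 are limited by signals that were not well above background on most or all medium-dose arrays, so that their folds are uncertain.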
